A study of Mus musculus with 18 samples.

Results

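The dual specificity MAP kinase phosphatases described here are 7 genes, Dusp1, Dusp2, Dusp4, Dusp5, Dusp6, Dusp10 and Dusp16, followed across 18 Affymetrix arrays of sorted mouse CD4 T cells. Their probe sets, the groups of oligonucleotides that read 1 transcript, were taken by the gene name in the authors' deposited annotation. They came to 9 of the 45037 probe sets tested on 10 arrays, and to 6 of the 22626 tested on the other 8 arrays, which are of another array type. The values of these 8 arrays do not hold the probe sets of Dusp4 and Dusp5 or a further probe set of Dusp16. The group aTreg (5 arrays) holds cells labelled Foxp3-positive, taken from the spleen and lymph nodes after DT treatment of Foxp3DTR animals, and the group Teff (5 arrays) holds their Foxp3-negative CD4 cells. Foxp3DTR animals carry the diphtheria toxin receptor under control of Foxp3, the transcription factor of regulatory T (Treg) cells, and the toxin kills cells that bear it. The groups B16_Treg and B16_Teff (2 arrays each) hold Foxp3-positive and Foxp3-negative CD4 cells sorted from B16 melanoma tumours of Foxp3GFP mice, in which green fluorescent protein marks the cells that express Foxp3. Spl_Treg and Spl_Teff (2 arrays each) are the same sorts from spleen and lymph nodes of Foxp3GFP mice. All donors were 6 to 8 weeks old, and in every group CD4 cells were enriched on beads and put through a double sort on GFP. The labels give neither the time after DT nor whether replicates are separate animals, so p-values measure only the spread between these arrays.

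MAP kinase phosphatases switch off the kinases ERK, JNK and p38 by removing the phosphate from both the threonine and the tyrosine of the activation loop. Many of them are made in response to the very kinases they inactivate and so form a negative feedback on T cell receptor and stress signals. Dusp1, Dusp2, Dusp4 and Dusp5 encode inducible phosphatases of the nucleus, and that of Dusp5 acts on ERK. Dusp6 encodes a cytoplasmic phosphatase selective for ERK. The products of Dusp10 and Dusp16 prefer JNK and p38.

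The sequences before the transcription start sites of 4 members are shown because Dusp6 and Dusp10 were lower in every Treg group, while Dusp1 and Dusp5 carried the only matches to the response elements searched. They are the 250 bases upstream of the start site from the RefSeq promoter table of build GRCm38.p6, which held 6 of the 7 members (Dusp4 is named only). The stretch for Dusp1 lies at chr17:26508473-26508722 on the minus strand, for Dusp5 at chr19:53528895-53529144, for Dusp6 at chr10:99262981-99263230 and for Dusp10 at chr1:184034131-184034380, the last 3 on the plus strand. Each reads 5′ to 3′ in the direction of transcription, and capitals mark a match to a cyclic AMP response element (Dusp1) or to CArG boxes, the serum response element core (Dusp5).
Dusp1: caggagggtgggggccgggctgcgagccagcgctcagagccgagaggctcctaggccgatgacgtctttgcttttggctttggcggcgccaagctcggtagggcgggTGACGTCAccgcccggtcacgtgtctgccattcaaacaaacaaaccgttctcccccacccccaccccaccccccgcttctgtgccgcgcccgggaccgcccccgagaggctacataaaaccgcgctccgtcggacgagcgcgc
Dusp5: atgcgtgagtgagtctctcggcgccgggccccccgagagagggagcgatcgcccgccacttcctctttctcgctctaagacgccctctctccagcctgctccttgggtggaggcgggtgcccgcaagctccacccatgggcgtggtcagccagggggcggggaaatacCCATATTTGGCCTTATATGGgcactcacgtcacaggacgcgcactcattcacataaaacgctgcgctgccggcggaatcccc
Dusp6: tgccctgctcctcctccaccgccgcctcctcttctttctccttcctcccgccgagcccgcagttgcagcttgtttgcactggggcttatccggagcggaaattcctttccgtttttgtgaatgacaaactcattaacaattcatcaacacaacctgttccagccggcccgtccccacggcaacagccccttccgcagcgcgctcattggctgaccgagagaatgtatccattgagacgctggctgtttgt
Dusp10: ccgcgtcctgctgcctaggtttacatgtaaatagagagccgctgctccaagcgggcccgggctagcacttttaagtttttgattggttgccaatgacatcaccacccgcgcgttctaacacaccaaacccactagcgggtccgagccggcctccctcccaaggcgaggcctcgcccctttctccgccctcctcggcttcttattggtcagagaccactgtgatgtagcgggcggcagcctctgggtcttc
On both strands, 4 motifs were searched for: the cyclic AMP response element TGACGTCA, the AP-1 site TGANTCA, the ETS site CCGGAAGT and the CArG box. Dusp1 held the palindrome TGACGTCA at -143 to -136 from the start site, a motif present in 1.55% of the 32851 promoters of this table. Dusp5 held the CArG boxes CCATATTTGG at -82 to -73 and CCTTATATGG directly after it at -72 to -63, and 1.47% of promoters held at least 1 CArG box. The matches do not overlap each other. The AP-1 site (6.75% of promoters) and the ETS site (2.88%) were not matched in these windows of the 6 genes, and Dusp2, Dusp6, Dusp10 and Dusp16 matched none of the 4 motifs there. A match describes the letters only.

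The labels were first set against marker genes. The T cell markers averaged 11.5 to 11.7 on the log2 scale on the 10 arrays and 11.1 to 11.5 on the 8 arrays, lowest on B16_Teff array 1. Foxp3 read 9.95 and 9.99 in Spl_Treg, but at most 3.43 in aTreg and at most 3.3 in B16_Treg, close to the Teff groups, while Il2ra, a receptor subunit for interleukin-2 that marks Treg cells, read at least 9.01 on every array labelled Treg and at most 6.34 on every array labelled Teff. "Treg" therefore stands for the label below. Xist, a transcript of females, read at least 10.57 on the 4 arrays from spleen and lymph nodes of Foxp3GFP mice and at most 2.62 on the 4 tumour arrays. Sex and tissue therefore cannot be told apart in comparisons of tumour with spleen. On the 10 arrays of DT-treated mice Xist, by another probe set, read at most 2.31. The 10 and the 8 arrays were normalized apart by the authors, so values were compared within a table only.

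In DT-treated mice the phosphatases split. Dusp4 and Dusp5 rose in arrays labelled aTreg, by 7.74-fold and 2.66-fold, and Dusp6 and Dusp10 fell. Dusp2 and Dusp16 gave no call and Dusp1 was higher without passing the test. The test was limma's on the log2 values with Benjamini-Hochberg adjustment over all probe sets and a call at adjusted p under 0.05. It called 5 of the 9 probe sets, 2 higher and 3 lower, where 6.78% of all probe sets were called (3.86% higher, 2.92% lower). The groups did not overlap for 4 of the 9, against 7.37% of all probe sets. Without aTreg 4, Teff 4 and Teff 5 together, 5 were called again (3 higher, 2 lower): Dusp1 was gained and the dimmer Dusp10 probe set lost. These arrays held the lowest aTreg value and the lowest and highest Teff values of Dusp1, so its gain is no support for a rise.

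**Figure D1:**
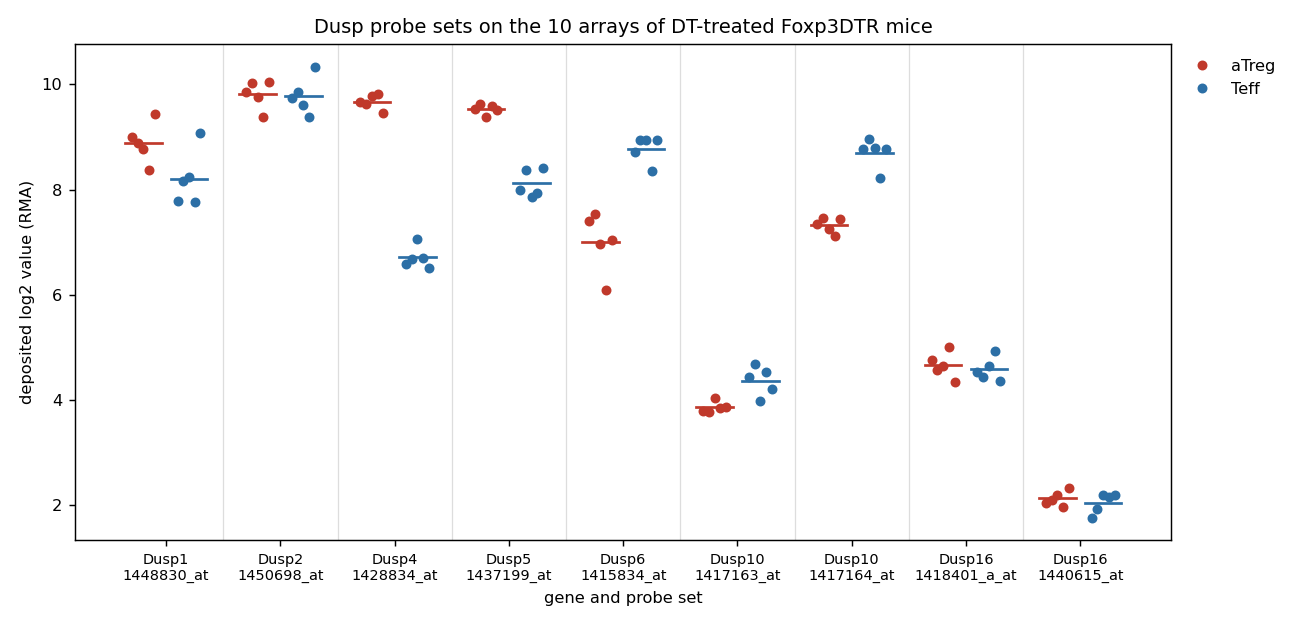
Deposited log2 value (RMA) of each of the 9 Dusp probe sets on the 10 arrays of DT-treated Foxp3DTR mice, with aTreg left of Teff; points are arrays and bars are group means (n = 5 each). Dusp4 and Dusp5 lie higher on every aTreg array than on any Teff array, Dusp6 and the brighter Dusp10 probe set (1417164_at) lie lower, and the other 5 probe sets overlap.

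Among the inducible nuclear phosphatases, Dusp4 (1428834_at) read 9.67, 9.62, 9.77, 9.82 and 9.45 in aTreg arrays, against 6.59, 6.69, 7.07, 6.71 and 6.52 in Teff arrays. The groups were far apart, and the log2 difference was 2.95 (SE 0.12, adjusted p = 1.39e-07). Only 15 of the 45037 probe sets had a larger rise. The aTreg arrays varied little, at 9.67 ± 0.146 (SD, n = 5), against 6.71 ± 0.211 (SD, n = 5) in Teff arrays.

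Dusp5 (1437199_at) read 9.54, 9.63, 9.39, 9.58 and 9.50 in aTreg arrays, against 8.00, 8.37, 7.86, 7.94 and 8.41 in Teff arrays. Again every aTreg array lay above every Teff array, and the difference was 1.41 (SE 0.124, adjusted p = 3.28e-05). Both calls held under all 18 alternative settings, with differences of 2.85 to 3.04 for Dusp4 and 1.35 to 1.48 for Dusp5.

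Dusp1 (1448830_at), whose product acts mostly on p38 and JNK, read 9.01, 8.89, 8.76, 8.37 and 9.43 in aTreg arrays, against 7.79, 8.16, 8.24, 7.77 and 9.08 in Teff arrays. Teff array 5 lay above 4 of the 5 aTreg arrays, and the difference of 0.69 (SE 0.253, 95% interval 0.13 to 1.24) did not pass (adjusted p = 0.158). Without Teff array 5 it was 0.90 and passed (adjusted p = 0.0146), as it did without aTreg 4, Teff 4 and Teff 5 (0.96, adjusted p = 0.00227). Both omissions take out the highest Teff value of Dusp1, and the second also its lowest aTreg and lowest Teff values, so neither supports the rise. With the replicate number as a block, though no label pairs the arrays, the difference passed too (adjusted p = 0.00722).

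Dusp2 (1450698_at), a nuclear phosphatase of activated lymphocytes, read 9.85, 10.03, 9.76, 9.37 and 10.05 in aTreg arrays, against 9.74, 9.86, 9.62, 9.39 and 10.34 in Teff arrays. The groups overlapped throughout. The difference of 0.026 had a 95% interval from -0.37 to 0.42 (adjusted p = 0.969).

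The ERK phosphatase of the cytoplasm went the other way from Dusp4 and Dusp5. Dusp6 (1415834_at) read 7.41, 7.54, 6.96, 6.10 and 7.04 in aTreg arrays, against 8.72, 8.94, 8.93, 8.35 and 8.95 in Teff arrays. No aTreg array reached the lowest Teff array, and Dusp6 fell by 1.77 (SE 0.241, adjusted p = 7.65e-04), a 3.41-fold difference. In aTreg arrays it also had the widest spread of the called members, at 7.01 ± 0.565 (SD, n = 5), with aTreg array 4 lowest. In Teff arrays it read 8.78 ± 0.257 (SD, n = 5).

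Of the phosphatases of JNK and p38, Dusp10 has 2 probe sets. The brighter one (1417164_at) read 7.35, 7.45, 7.25, 7.12 and 7.44 in aTreg arrays, against 8.77, 8.97, 8.79, 8.22 and 8.76 in Teff arrays. It fell by 1.38 (SE 0.138, adjusted p = 8.74e-05) with no overlap. The dimmer one (1417163_at) averaged 3.87 ± 0.106 (SD, n = 5) in aTreg arrays and 4.37 ± 0.276 (SD, n = 5) in Teff arrays, close to the array medians of 4.05 to 4.14. Its fall of 0.50 (SE 0.132, adjusted p = 0.0405) lost its call without any 1 of aTreg arrays 1 to 5 or Teff arrays 1, 2 and 4 (adjusted p = 0.0571 to 0.103).

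Dusp16 (1418401_a_at) read 4.76, 4.57, 4.64, 5.02 and 4.35 in aTreg arrays, against 4.53, 4.43, 4.66, 4.94 and 4.37 in Teff arrays. The groups overlapped, with a difference of 0.084 (95% interval -0.23 to 0.40, adjusted p = 0.843). Its other probe set (1440615_at) read between 1.76 and 2.34 on all 10 arrays, below the array medians, and differed by 0.084 too (adjusted p = 0.792).

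The spread within the DT groups was shared between some of the members. Teff array 5 lay above the Teff mean by 0.87 for Dusp1, 0.55 for Dusp2 and 0.29 for Dusp5, and aTreg array 4 lay below the aTreg mean, at -0.52 for Dusp1, -0.44 for Dusp2 and -0.91 for Dusp6. The mean of 16 immediate early genes, fast targets of ERK and p38 such as Fos and Egr1, deviated the same way on these arrays, by 0.39 on Teff array 5 and by -0.35 on aTreg array 4. For Dusp4 the deviation was -0.19 on Teff array 5 and 0.15 on aTreg array 4, opposite in sign to that of Dusp1. Dusp16 (1418401_a_at) was opposite too, at -0.22 and 0.35, and Dusp5 lay at 0.05 on aTreg array 4. Markers of other cells also set aTreg array 4 apart. Its mean of 2 neutrophil markers was 4.78, against 2.53 to 3.13 on the other aTreg arrays. That of 5 B cell markers was 5.39, against 4.57 to 4.82, and that of 9 macrophage and dendritic cell markers 5.75, against 4.56 to 5.39. On Teff array 5 these means lay within the range of the other Teff arrays. What part this shared shift or such cells have in the results was not tested.

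**Figure D2:**
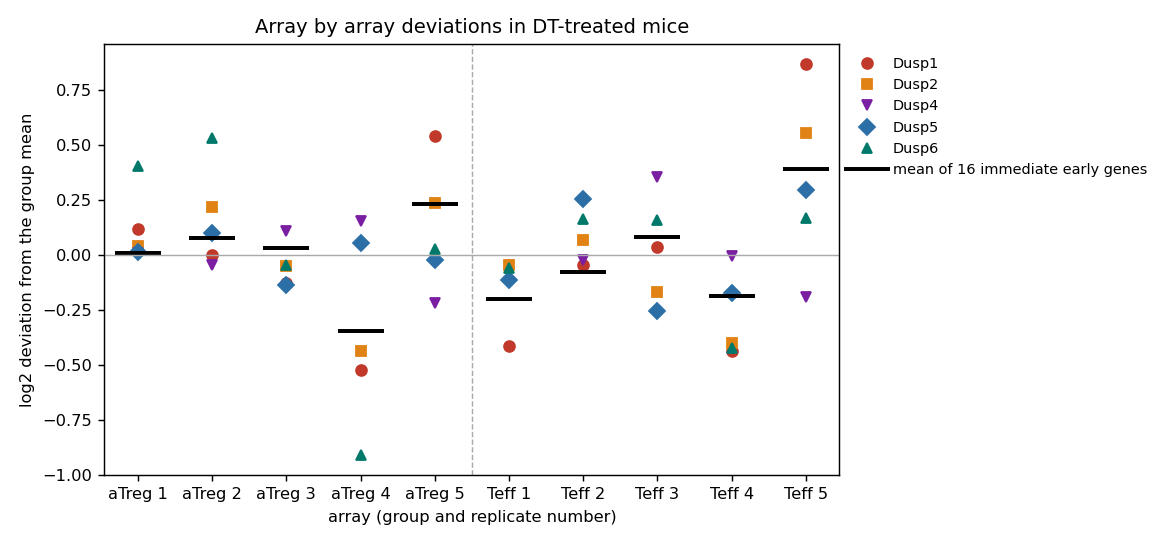
Log2 deviation of 5 Dusp probe sets from their own group mean on each array of DT-treated mice, aTreg arrays left and Teff arrays right; the black bar is the mean deviation of 16 immediate early genes. Dusp1 and Dusp2 follow the black bar on aTreg arrays 4 and 5 and on Teff arrays 4 and 5, and Dusp4 lies on the other side of 0 on aTreg arrays 4 and 5 and on Teff array 5.

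Without DT, in spleen and lymph nodes of Foxp3GFP mice, Dusp10 again fell in arrays labelled Treg, and Dusp16 rose. Smaller falls of Dusp6 and Dusp2 passed as well. The test called 5 of 6 probe sets, 1 higher and 4 lower, where 12.5% of all probe sets were called (6.29% higher, 6.17% lower). The median absolute difference of the 6 probe sets was 0.63, against 0.13 over all probe sets.

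Dusp10 (1417164_at) read 8.80 and 9.04 in Spl_Treg, against 9.96 and 10.37 in Spl_Teff, and fell by 1.25 (SE 0.154, adjusted p = 0.00119). The dimmer probe set fell by 0.87 (SE 0.116, adjusted p = 0.0017). Both calls held under every alternative that kept the probe set. Dusp16 (1418401_a_at) read 6.61 and 6.52 in Spl_Treg, against 5.98 and 5.78 in Spl_Teff. It rose by 0.69 (SE 0.108, adjusted p = 0.00414), and this call too held under all 16 alternatives.

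Dusp6 read 8.48 and 8.14 in Spl_Treg, against 8.95 and 8.79 in Spl_Teff, and fell by 0.57 (SE 0.137, adjusted p = 0.0303). Its call ended without Spl_Teff array 1 (adjusted p = 0.17), Spl_Teff array 2 (adjusted p = 0.084) or Spl_Treg array 2 (adjusted p = 0.149). Dusp2 read 9.90 and 9.75 in Spl_Treg, against 10.33 and 10.14 in Spl_Teff. Its fall of 0.41 (SE 0.107, adjusted p = 0.0429) was called by a narrow margin. It ended without any 1 of the 4 arrays of these groups (adjusted p = 0.236 and 0.0747 without Spl_Teff 1 and 2, 0.0758 and 0.182 without Spl_Treg 1 and 2), without either B16_Treg array (adjusted p = 0.065), and in a fit of the pair of groups alone (adjusted p = 0.0665). Dusp1 read 12.89 and 12.94 in Spl_Treg, against 12.63 and 12.58 in Spl_Teff. The difference of 0.31 (95% interval 0.11 to 0.52) did not pass (adjusted p = 0.0595), but passed with an intensity trend in the variance (0.0046), over probe sets at or above the median level (0.0222) and over means of probe sets (0.0398).

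In B16 tumours all 6 probe sets were called, 2 higher and 4 lower in arrays labelled Treg, where 23.4% of all probe sets were called (12.3% higher, 11.2% lower). Dusp16 and Dusp1 rose, and Dusp2, Dusp6 and Dusp10 fell. Their median absolute difference was 1.06, against 0.16 over all probe sets, with the limits given for spleen. Each of these calls held under every alternative that kept its probe set.

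**Figure D3:**
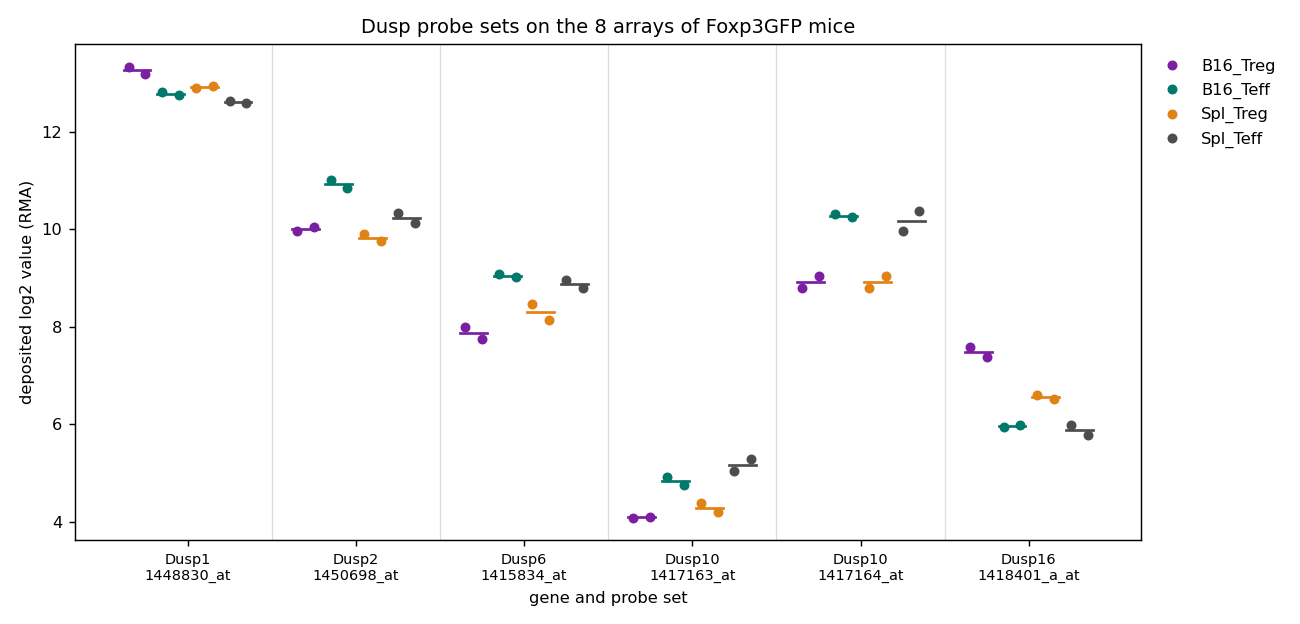
Deposited log2 value (RMA) of the 6 Dusp probe sets on the 8 arrays of Foxp3GFP mice, in the order B16_Treg, B16_Teff, Spl_Treg and Spl_Teff; points are arrays and bars are group means (n = 2 each). Dusp16 is highest in B16_Treg and next in Spl_Treg, Dusp2 is highest in B16_Teff, and Dusp10 separates arrays labelled Treg from those labelled Teff at both sites.

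Dusp16 read 7.59 and 7.38 in B16_Treg, against 5.96 and 5.99 in B16_Teff, a rise of 1.52 (SE 0.108, adjusted p = 3.38e-05) or 2.86-fold. Dusp1 read 13.34 and 13.18 in B16_Treg, against 12.82 and 12.75 in B16_Teff, and rose by 0.48 (SE 0.09, adjusted p = 0.00571). Dusp1 was thus higher on average in the arrays labelled Treg at both sites and in DT-treated mice, and passed the test in the tumour.

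Dusp2 read 9.96 and 10.04 in B16_Treg, against 11.02 and 10.85 in B16_Teff. It fell by 0.94 (SE 0.107, adjusted p = 4.18e-04). Dusp6 read 8.00 and 7.74 in B16_Treg, against 9.07 and 9.02 in B16_Teff, and fell by 1.18 (SE 0.137, adjusted p = 4.62e-04). Dusp10 (1417164_at) read 8.80 and 9.05 in B16_Treg, against 10.32 and 10.25 in B16_Teff, and fell by 1.36 (SE 0.154, adjusted p = 3.94e-04), while its dimmer probe set fell by 0.74 (adjusted p = 0.0021). Side by side, the difference of Dusp10 was -1.38 in DT-treated mice, -1.25 in spleen and -1.36 in the tumour. Those of Dusp6 were -1.77, -0.57 and -1.18, and those of Dusp16 0.084, 0.69 and 1.52. Of these groups only those from spleen read Xist high, so sex cannot be told apart from DT treatment and site here.

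**Figure D4:**
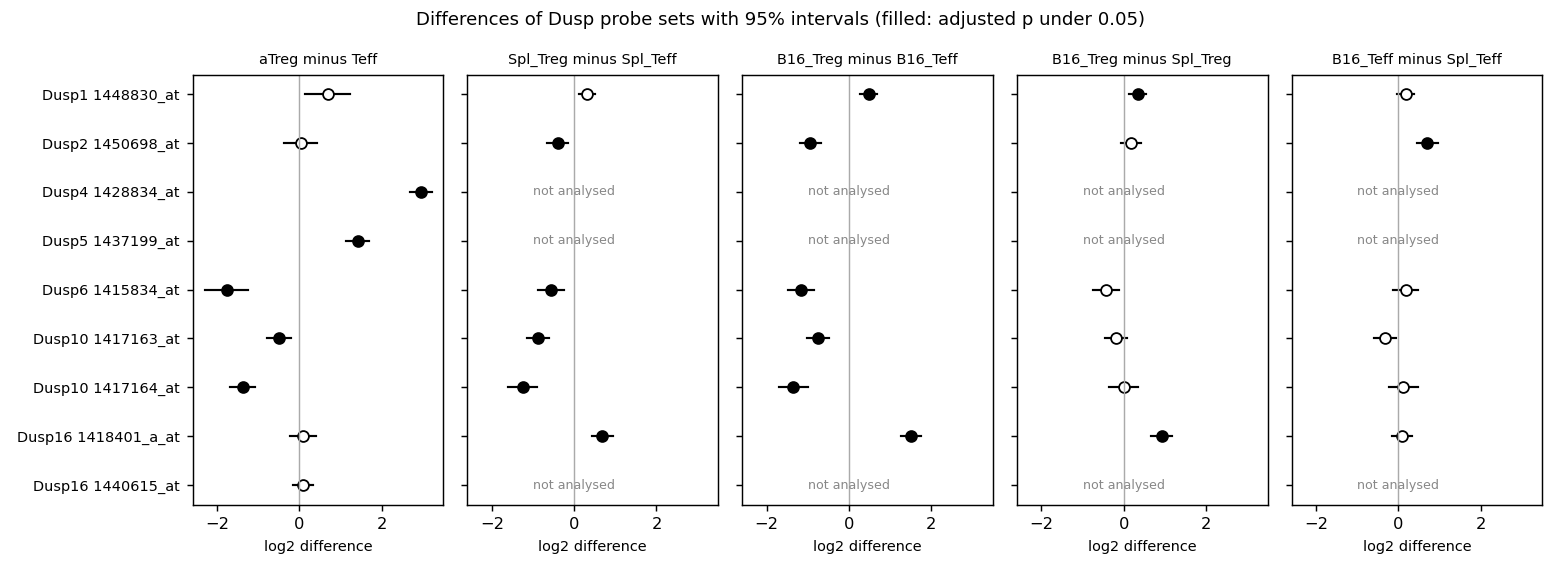
Log2 difference of each Dusp probe set (points) with its 95% interval (lines) in 5 comparisons, filled where adjusted p was under 0.05; the last 4 panels share arrays and are not independent. Dusp10 and Dusp6 lie left of 0 in all 3 comparisons of Treg with Teff, whereas Dusp16 lies near 0 in DT-treated mice and right of it in Foxp3GFP mice.

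Markers of other cells moved along with some of these differences. The mean of 4 plasmacytoid dendritic cell markers (Bst2, Ly6d, Tcf4 and Irf8) read 6.76 and 6.89 in B16_Treg, against 10.3 and 9.36 in B16_Teff, and 6.50 and 6.86 in Spl_Treg, against 7.77 and 7.89 in Spl_Teff. All 4 genes were lower in B16_Treg than in B16_Teff and 3 of 4 in Spl_Treg than in Spl_Teff by limma's test. The mean of 9 macrophage and dendritic cell markers read 6.11 and 5.60 in B16_Treg, against 7.32 and 6.85 in B16_Teff, but its members were split. Tyrobp (-4.94), H2-Aa (-4.23), Fcer1g (-2.66) and Itgax (-2.18) fell, Cd14 rose (0.64), 4 did not pass, and the list median was 0.15. In spleen 3 of these 9 fell (Tyrobp, H2-Aa and Itgax) and 2 rose (Lyz2 by 1.56 and Csf1r by 1.27). In aTreg arrays Tyrobp (-1.73) and H2-Aa (-1.68) fell, Itgam rose (1.90) and 6 did not pass. In DT-treated mice 5 plasmacytoid markers averaged 5.72 to 5.89 in aTreg arrays, against 5.70 to 6.52 in Teff arrays, so the means overlapped, while Siglech fell (-0.91, adjusted p = 0.0128), Irf8 rose (1.11, adjusted p = 0.00487) and 3 did not pass. Markers of NK cells (3 genes) averaged 4.35 to 4.86 in aTreg arrays, against 5.46 to 5.62 in Teff arrays, 4.31 and 4.16 in B16_Treg, against 5.03 on both B16_Teff arrays, and 4.26 and 4.62 in Spl_Treg, against 5.47 and 5.35 in Spl_Teff. Eomes fell in all 3 comparisons, Klrb1c fell in aTreg arrays (-1.10, adjusted p = 0.00308) and was not called in the other two, and Ncr1 was called in none of the 3 and read at most 3.66 on average in any group. CD8 T cell markers (2 genes) averaged 5.98 and 5.86 in B16_Treg, against 7.81 and 6.96 in B16_Teff. Of 8 T cell markers, Cd2, Cd3d (0.36), Cd3g (0.48) and Cd5 (0.49) rose in B16_Treg relative to B16_Teff. None fell and 4 did not pass, with a list median of 0.33. Dusp1 rose there by 0.48 and Dusp16 by 1.52. In spleen 1 T cell marker rose and 2 fell, and in aTreg arrays 1 rose and 1 fell. The part of the other cells in the falls of Dusp2, Dusp6 and Dusp10 was not tested. Nor was the part of the share of T cells in the rises of Dusp1 and Dusp16. In bulk RNA fewer cells of a type cannot be told apart from less RNA per cell.

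Tumour arrays were then compared with spleen and lymph node arrays of the same label. Among arrays labelled Treg, Dusp16 rose in the tumour and Dusp1 rose slightly, 2 of 6 probe sets where 21.7% of all probe sets were called and 10.7% rose. Dusp16 differed by 0.92 (SE 0.108, adjusted p = 5.47e-04), from the values given above. Dusp1 differed by 0.34 (SE 0.09, adjusted p = 0.0284), a call that ended without B16_Treg array 1 (adjusted p = 0.167), Spl_Treg array 1 (0.112) or Spl_Treg array 2 (0.072), and in a fit of these groups alone (0.0681). Dusp6 was lower in the tumour by a margin that did not pass (-0.44, 95% interval -0.75 to -0.12, adjusted p = 0.0553), and passed in 6 of 16 alternatives, among them without Spl_Treg array 2 (-0.61, adjusted p = 0.0288). For Dusp10 (1417164_at) the difference was 0.0023 with a 95% interval from -0.35 to 0.36. Of 5 B cell markers 4 fell in B16_Treg relative to Spl_Treg (Cd22 -1.74, Ms4a1 -1.06, Cd79b -1.01 and Cd79a -0.54). Of the 9 macrophage and dendritic cell markers 4 fell, led by Lyz2 (-2.45) and Csf1r (-1.65), and Cd14 rose (1.23). The part of such cells was not tested.

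Among arrays labelled Teff, only Dusp2 of these probe sets was called, 1 of 6 where 14.0% of all probe sets were called and 6.96% rose. It rose by 0.70 (SE 0.107, adjusted p = 0.00393) in B16_Teff relative to Spl_Teff and held under all 16 alternatives. The 4 plasmacytoid markers named above were also higher in B16_Teff, Ly6d by 2.18 (adjusted p = 0.00146). So were Cd8b1 (1.80, adjusted p = 0.00254) and Cd8a (1.22, adjusted p = 0.00691) of the CD8 T cells, and Tyrobp (adjusted p = 0.00272), Fcer1g (1.70, adjusted p = 0.0129) and Cd14 (0.53) of the macrophage list, in which Lyz2 (-1.79) and Csf1r (-1.09) fell. Their part was not tested. Dusp16, in contrast to the arrays labelled Treg, differed by 0.092 (95% interval -0.15 to 0.34) between B16_Teff and Spl_Teff. Melanoma markers (5 genes) averaged 7.81 and 7.50 in B16_Treg and 7.84 and 7.09 in B16_Teff, against 4.55 to 4.79 on the spleen arrays. Stromal and endothelial markers (5 genes) averaged 5.85 to 7.46 on the tumour arrays, against 4.65 to 4.96 on the spleen arrays. The part of such cells in the differences between tumour and spleen was not tested.

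Whether the Treg to Teff difference itself differed between the sites was tested by the interaction, the difference in the tumour minus that in spleen and lymph nodes. The sites also differ in Xist and, among arrays labelled Treg, in Foxp3. Tissue, sex and the Foxp3 reading therefore cannot be told apart in it. Dusp16 was the 1 member called, at 0.83 (SE 0.153, 95% interval 0.48 to 1.18, adjusted p = 0.0188), where 5.11% of all probe sets were called (2.44% positive). The call ended without B16_Teff array 1 (adjusted p = 0.0545), B16_Treg array 1 (0.0666), Spl_Teff array 1 (0.0795) or Spl_Treg array 2 (0.0708), with values of 0.72 to 0.81. Dusp2 gave -0.53 (SE 0.152, adjusted p = 0.0986) and Dusp6 -0.61 (SE 0.194, adjusted p = 0.136), neither of which passed. For Dusp10 (1417164_at) it was -0.11 (95% interval -0.61 to 0.39) and for Dusp1 0.16 (95% interval -0.13 to 0.46).

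The level of Dusp16 thus ran from B16_Treg (7.49 ± 0.149, SD, n = 2) through Spl_Treg (6.57 ± 0.063) and B16_Teff (5.97 ± 0.025) to Spl_Teff (5.88 ± 0.139). The last 2 of these did not differ beyond their spread. Dusp2 ran in another order, from B16_Teff (10.94 ± 0.118) through Spl_Teff (10.23 ± 0.133) and B16_Treg (9.96 and 10.04) to Spl_Treg (9.83 ± 0.103), and its neighbours B16_Treg and Spl_Treg were not called apart (difference 0.18, adjusted p = 0.304).

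Genes with the most similar pattern were sought for each member whose group means spanned at least 1 log2 unit, by the root mean square (RMS) difference of values centred on their own mean. Among 11915 genes over the 10 arrays, Dusp4 was closest to Ctla4 (RMS difference 0.213), an inhibitory receptor of Treg cells, to Coro2a (0.24) and to Socs2 (0.264), a suppressor of cytokine signalling. Ctla4 averaged 11.48 in aTreg and 8.40 in Teff arrays. Dusp5 was closest to the glucose transporter Slc2a3 (0.142), the Ikaros family factor Ikzf3 (0.182) and Gtse1 (0.189). Dusp6 was closest to Synpo (0.126), Otud1 (0.186) and Syne2 (0.22), and Dusp10 to the follicular homing receptor Cxcr5 (0.127), Pik3ip1 (0.13), an inhibitor of PI3 kinase, and Gtf2i (0.131).

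Over the 8 arrays of Foxp3GFP mice and 7027 genes the neighbours were others. Dusp2 was closest to Nptn (RMS difference 0.0987), Zfp36 (0.127), which destabilises cytokine mRNAs, and Ifi30 (0.133). Dusp10 was closest to the immediate early gene Ier2 (0.157), Tmem71 (0.161) and Il17ra (0.178), and Dusp6 to A230046K03Rik (0.139), the adaptor Grap2 (0.142) and Slfn2 (0.143). Dusp16 was closest to Glipr1 (0.0965), the peroxiredoxin Prdx4 (0.121) and the adhesion molecule Alcam (0.127). The arrays of 1 group share their label and tissue, so a small RMS difference describes a shared group pattern.

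Other genes of the MAP kinase pathway were read from 1 probe set per gene. Of 13 other dual specificity phosphatases, Dusp12 fell in aTreg arrays (-0.53, adjusted p = 0.00658) and 12 did not pass, with a list median of -0.013 (8.9% of all genes were called in either direction, with a median of 0.027). Of 11 measured in the tumour, Dusp14 (1.33), Dusp3 (0.58) and Dusp19 (0.46) rose in B16_Treg and 8 did not pass (25.0% of all genes). In spleen limma called 0 of 11, 2 of them with an unadjusted p under 0.05 (13.4% of all genes were called).

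Among the 10 MAP kinases, Mapk14, which encodes p38 alpha, fell in arrays labelled Treg in all 3 comparisons, at -0.53 in DT-treated mice, -0.51 in spleen and -0.50 in the tumour. Mapk9, which encodes JNK2, rose in spleen (0.57) and in the tumour (0.65), and Mapk3, which encodes ERK1, rose in the tumour (0.46). Mapk11, another p38 kinase, fell there (-0.52). Of the 10, 9 did not pass in DT-treated mice (8.9% of all genes called), 8 in spleen (13.4%) and 6 in the tumour (25.0%). The list medians were 0.013, -0.043 and 0.0076. Of 7 MAP kinase kinases, limma called 0 in DT-treated mice (3 at an unadjusted p under 0.05, with 8.9% of all genes called) and 0 in spleen (2 at that level, with 13.4% called). In the tumour, where 25.0% of all genes were called, Map2k3 (1.09), an activator of p38, Map2k1 (0.34) and Map2k5 (0.32) rose in B16_Treg.

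Of 9 measured genes of Ras and Raf entry to ERK, 2 fell in DT-treated mice and 7 did not pass (median -0.37, with 8.9% of all genes called), Sos2, an exchange factor of Ras, by -0.88 and the scaffold Ksr1 by -0.52. In spleen, where 13.4% of all genes were called, 3 fell (Sos1, Sos2 and Nras, -0.47 to -0.38), and in the tumour, where 25.0% were called, Sos1 (-0.45) and Ksr1 (-0.41) fell. Of 11 Sprouty genes and other brakes of Ras, Rasa3, a GTPase-activating protein, fell in spleen (-1.05) and in the tumour (-1.48), while the adaptors Dok1 (0.73 and 0.67) and Dok2 (0.43 and 0.46) rose in both, 3 of 11 each time, where 13.4% and 25.0% of all genes were called. In DT-treated mice 0 of these 11 were called, 3 of them with an unadjusted p under 0.05. Of 3 tyrosine phosphatases of MAP kinases, 2 were measured. Ptpn5 rose in B16_Treg relative to B16_Teff (2.40, adjusted p = 8.82e-05), and the other did not pass (25.0% of all genes called). In DT-treated mice and in spleen 0 of 2 were called, 1 and 0 of them with an unadjusted p under 0.05 (8.9% and 13.4% of all genes called).

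The 16 immediate early targets of ERK and p38 were mostly not called. In DT-treated mice 4 fell, 1 rose and 11 did not pass in aTreg arrays (median -0.12, with 8.9% of all genes called): Ier3 by -2.40, Egr3 by -1.0, Egr2 by -0.91 and Egr1 by -0.50, with Etv5 at 0.66. In spleen Ier2 fell (-1.03) and Myc rose (0.54), and 14 did not pass, a share near the 13.4% of all genes called. In the tumour 6 fell and 10 did not pass (25.0% of all genes were called), led by Fosb (-1.41), Fos (-1.16), Ier2 (-1.15) and Jun (-1.09). The fall of Dusp2 in B16_Treg thus stood beside falls of Fos and Fosb, whereas Dusp1, of the same class of inducible genes, rose in B16_Treg. The interaction was called for Fos and Fosb (-1.05 and -1.23, adjusted p = 0.00434 and 0.00595). These were 2 of the 16 genes, 14 did not pass, and 5.11% of all probe sets were called. For Dusp2 the interaction did not pass (-0.53, adjusted p = 0.0986).

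**Figure D5:**
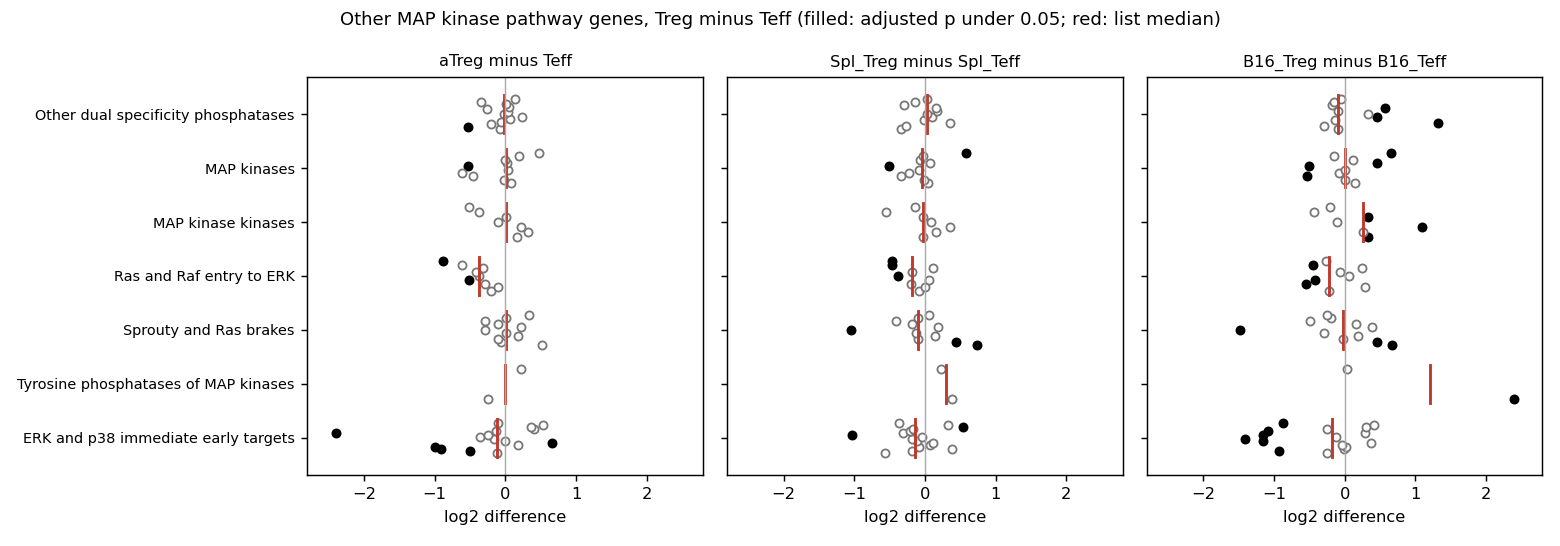
Log2 difference of each measured gene of 7 MAP kinase pathway lists (points, filled where adjusted p was under 0.05) and the list median (red line), for arrays labelled Treg minus Teff in DT-treated mice, spleen and tumour. Ier3 stands lowest in DT-treated mice, and Ptpn5 stands highest in the tumour.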

How the data were processed

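Total RNA of sorted CD4 T cells was labelled with biotin and hybridised to Affymetrix arrays. The authors deposited log2 values per probe set made with RMA, per the submitters' processing notes, which give no version of it, as 1 table of 10 arrays (45101 probe sets) and 1 of 8 arrays (22690 probe sets). Array medians lay at 4.05 to 4.14 and 5.87 to 5.9, so no further scaling was applied. Gene names came from the deposited annotation, whose value columns matched 5 aTreg arrays within 5e-09. 16 further columns of it were not used. The 64 control probe sets of each table were left out.

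Groups were taken from the labels. limma 3.58.1 (lmFit and eBayes) in R 4.3.3 was fitted to every probe set without covariates or block, the DT groups alone and the other 4 groups together, with Benjamini-Hochberg adjustment over all probe sets of the table. Every adjusted p comes from these fits, or from limma under the alternative setting or array omission named beside it. Scripts were tested on simulated data. The number of arrays limits the precision. A pathway or marker gene was read from its probe set with the highest mean. The members were named by symbol, and per pathway list and comparison at most 4 called genes were named, largest difference first, with further called genes only where a list's calls are given in full. The 3 most similar genes per member came from genes at or above the median level. Members and lists were chosen with earlier results of these data known. Alternatives covered the variance prior, a filter on dim probe sets, scaling, probe set summary, the replicate block, the groups fitted and leaving out arrays. A gene of the Ras and Raf list is not reported here. Promoters came from RefSeq (GRCm38.p6). Python 3.11.15, pandas 2.3.3 and matplotlib 3.10.9 were used.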

Additional observations from a re-analysis of the deposited data

Results flagged for a closer look

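Dusp16 (1418401_a_at) stood out because its Treg to Teff difference was larger in B16 tumours than in spleen and lymph nodes, with an interaction of 0.83 (adjusted p = 0.0188) that 4 of the 8 single-array omissions ended. Tissue and sex cannot be told apart in this interaction.

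Dusp10 (1417164_at) stood out for Teff array 4, which read 8.22, farther from the other 4 Teff arrays (8.76 to 8.97) than Dixon's 95% limit allows. Chance flags about 1 in 20 groups, and 18 groups of 5 arrays were looked at. Without this array Dusp10 in aTreg arrays was called at -1.5 on the log2 scale.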

How the results depend on the processing

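Of the 616 values of members under an alternative setting, 554 kept their direction and side of the threshold, 30 lost and 14 gained a call, and 18 reversed, none of these 18 in a called difference. The number of Dusp probe sets called, over leaving out 1 array at a time, was 4 to 6 for aTreg minus Teff, 3 to 5 for Spl_Treg minus Spl_Teff, 6 for B16_Treg minus B16_Teff, 1 to 2 for B16_Treg minus Spl_Treg, 1 for B16_Teff minus Spl_Teff and 0 to 1 for the interaction. It was 1 for B16_Treg minus Spl_Treg in a fit of those groups only, and 2 for the interaction with an intensity trend or with only probe sets at or above the median level. Among uncalled differences, Dusp10 (1417164_at) between B16_Treg and Spl_Treg was -0.0051 with arrays centred, -0.011 after a further quantile normalization, -0.095 over the mean of probe sets and -0.12 to 0.13 without 1 array. Between B16_Teff and Spl_Teff it was -0.10 over the mean of probe sets and -0.094 to 0.32 without 1 array, and its interaction 0.0094 and -0.32 to 0.096. Dusp2 in aTreg minus Teff was -0.022 after quantile normalization and -0.075 to 0.16 without 1 array. Dusp16 (1418401_a_at) without 1 array was -0.0031 to 0.17 in aTreg minus Teff and -0.0061 to 0.19 in B16_Teff minus Spl_Teff. The cause of these shifts was not tested. With the replicate number as a block, 6 Dusp probe sets were called in aTreg minus Teff (Dusp1 gained, adjusted p = 0.00722), and 3 in B16_Treg minus Spl_Treg (Dusp6 gained, adjusted p = 0.0214). The block raised the calls over all probe sets in aTreg minus Teff to 5353, against 3052 without it, and 5948 were called without aTreg 4, Teff 4 and Teff 5. Over leaving out 1 array at a time, the calls over all probe sets were 2060 to 4323 in aTreg minus Teff, 1365 to 2869 in Spl_Treg minus Spl_Teff (2819 with all arrays), 3149 to 4959 in B16_Treg minus Spl_Treg (4916), 1430 to 3070 in B16_Teff minus Spl_Teff (3176) and 556 to 1120 in the interaction (1157). With 1 probe set per gene, where fewer features were tested, they were 1820, 3355, 3105, 2091 and 768 for Spl_Treg minus Spl_Teff, B16_Treg minus B16_Teff (5300 over all probe sets), B16_Treg minus Spl_Treg, B16_Teff minus Spl_Teff and the interaction. Deviations of same-numbered arrays correlated over probe sets at 0.044 to 0.516 between aTreg and Teff and at -0.121 to 0.176 between groups of the 8 arrays. Teff arrays 2 to 5 each correlated best with the aTreg array of their own number (0.219, 0.407, 0.516 and 0.472). Teff array 1 did not, and aTreg arrays 1 and 2 correlated best with Teff arrays 4 (0.078) and 5 (0.383). No label ties the numbers. The numbers were therefore not taken to pair the arrays, but a pairing of aTreg and Teff arrays is not excluded. Signal near background limits the dimmer probe sets of Dusp10 and Dusp16, and 2 arrays a group limit all comparisons of Foxp3GFP mice.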
